A study of Brassica napus and Orychophragmus violaceus with 4 samples.

Results

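The genes described here are the flavonol branch of flavonoid synthesis: the flavonol synthases (FLS), the MYB12 family of activators and the flavonol glycosyltransferases. They were chosen by name, as all *B. rapa* genes of the deposited read sheet whose Arabidopsis match was FLS1 (AT5G08640), FLS3 (AT5G63590), FLS4 (AT5G63595), FLS5 (AT5G63600), MYB11 (AT3G62610), MYB12 (AT2G47460), MYB111 (AT5G49330), UGT78D1 (AT1G30530), UGT89C1 (AT1G06000) or UGT73C6 (AT2G36790). This gave 12 of 37441 genes, of which 7 were FLS and 5 were MYB genes. Only 4 of the 10 Arabidopsis genes had a match in the sheet, FLS1 with 4 copies, FLS3 with 3, MYB12 with 2 and MYB111 with 3. No gene of the sheet was matched to FLS4, FLS5, MYB11 or any of the glycosyltransferases UGT78D1, UGT89C1 and UGT73C6, so the last step of the branch was described only through related genes.

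Petals of half-open flowers from plants grown in a greenhouse were sequenced in 4 plant materials. M4 is a line of *Brassica napus* with a disomic addition, which holds all *B. napus* chromosomes and a pair from *Orychophragmus violaceus*, and its petals carry red on yellow. H3 is cultivar Huashuang 3, the yellow-flowered *B. napus* parent of M4. OvP is wild-type *O. violaceus* with purple petals, and OvW is a natural mutant of the same species with white petals. M4 and H3 thus share the *B. napus* chromosomes, and OvP and OvW share the species. The differences asked about were those of M4 from H3 and of OvP from OvW, that is, between coloured petals and petals without the red or purple colour.

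Flavonols are colourless to pale yellow pigments that absorb ultraviolet light and act as copigments in petals. Flavonol synthase turns dihydroflavonols into flavonols, and dihydroflavonol reductase (DFR) draws on the same dihydroflavonols at the start of the anthocyanin branch. In Arabidopsis, MYB11, MYB12 and MYB111 are R2R3-MYB activators of the early flavonoid genes and of FLS1, and the UGT enzymes attach rhamnose or glucose to the finished flavonols.

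Each material had 1 library, so no difference has a replicate check in these data. Every test below compares the reads of a pair of libraries and not the conditions. The paper reports the same trend by quantitative PCR for most genes it measured in M4 and H3 petals. MYB12 was among the genes measured, whereas MYB111 and the FLS genes were not, and its text does not say which genes followed the trend. From the same libraries as used here, the paper also lists MYB12 copy Bra004456 and MYB111 copy Bra037419 as up-regulated in M4. The M4 library held 15507389 counted reads and the H3 library 16447021, while OvP held 1850787 and OvW 2040729. A count of 0, read as at most 3 reads, allowed up to 0.193 CPM (reads relative to the total of their library) in M4 and 0.182 in H3, but up to 1.62 in OvP and 1.47 in OvW. Genes of *B. rapa* served as the counting reference for every library, including reads from the *B. napus* C genome and from *O. violaceus*, so near-identical copies could not be separated and a level cannot be assigned to a genome of origin. M4 reads stand in a column headed by a code alone, which was matched to M4 through the deposited levels: on 14978 genes with at least 50 reads, the M4 to H3 ratio of levels was 1.05 times that of reads at the median, and between 1.04 and 1.06 times for the middle 95% of genes. The petal identity genes AP3, PI, SEP3 and AP1 summed to 6130 RPKM (reads scaled to gene length and mapped reads) in M4 and 6845 in H3, and to 7613 in OvP and 11691 in OvW. Of these, 1 was called in each pair, SEP3, lower at 0.48-fold in M4 and 0.49-fold in OvP. Green tissue markers summed to 122 RPKM in M4 and 184 in H3, with 2 of the 4 tested lower in M4, and to 943 in OvP and 3114 in OvW, with 4 of 5 lower in OvP. RBCS1A, a defining green tissue gene, was at 0 reads in all libraries but OvP, which had 1. Anther and tapetum markers, from cells rich in flavonols, summed to 11.6 RPKM in M4 and 13.3 in H3, and to 45.4 in OvP and 30.3 in OvW, and 0 of 7 were called in either pair. Pollen markers summed to 4.40 RPKM in M4 and 9.41 in H3, both lower in M4, and to 17.8 in OvP and 27.3 in OvW. Carpel markers summed to 8.20 RPKM in M4 and 20.1 in H3, and to 12.9 in OvP and 11.8 in OvW. Of the 3 tested, 1 was lower in M4, SHP2 at 0.28-fold, and none was called in OvP. Over all Arabidopsis genes with reads summed over copies, 13.7% were called lower in M4 and 6.63% lower in OvP. The part of these other tissues in the results below was not tested, and in such bulk samples fewer cells of a type and less RNA per cell cannot be told apart.

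Reads were scaled within each pair by TMM, a factor from the bulk of genes, and a gene was called when the exact binomial test of its reads gave a p of 0.01 or less and the fold was at least 2 or at most 0.5. At these depths, 9 reads in M4 or 7 reads in OvP against 0 were the fewest that could pass. The median log2 fold of M4 over H3 was -0.0055 with TMM and 0.38 with total reads, over 21002 genes with 10 or more reads in both libraries, so folds are given relative to the TMM median. Intervals are 95% intervals and, like the limits set by a count of 0, cover counting error only. Sequenced reads are also not independent molecules.

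**Figure D1:**
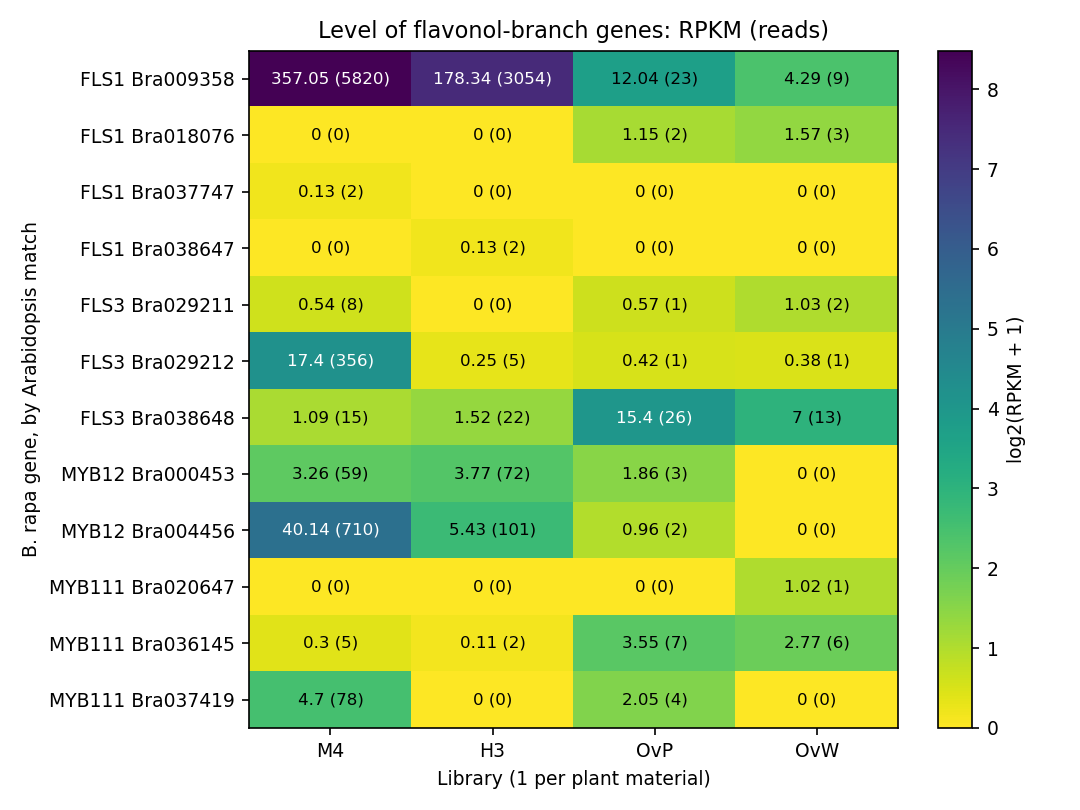
Level of each of the 12 genes (rows) in each library (columns), with the RPKM printed first and the reads behind it in parentheses, and the colour giving log2(RPKM + 1). FLS1 copy Bra009358 stands highest in M4 and H3, at 357.05 and 178.34 RPKM, whereas the *O. violaceus* libraries hold at most 26 reads on any member.

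In M4 and H3 a single FLS gene carried nearly all flavonol synthase reads. The FLS1 copy Bra009358 on chromosome A10 had 5820 reads in M4 and 3054 in H3, with 23 in OvP and 9 in OvW. In RPKM these were 357 in M4 and 178 in H3, and 12.0 in OvP and 4.29 in OvW. The level in M4 was higher than that of 99.1% of the genes of the sheet, and the level in H3 than that of 97.8%. In the other species the percentages were 75.3 in OvP and 60.2 in OvW. The order of levels was M4, H3, OvP, OvW, and levels between the species were set side by side without a test. The fold of Bra009358 for M4 over H3 was 1.55 (interval 1.48 to 1.62), which was under the 2-fold limit. With total reads the fold was 2.02 and with the deposited RPKM 2.002, and under both scalings the gene was called, as were 30.8% and 29.4% of all genes.

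In *O. violaceus*, Bra009358 had a fold of 2.66 for OvP over OvW (interval 1.18 to 6.52, exact binomial p = 0.0123) and was not called. With total reads the fold was 2.82 and the exact p = 0.00718, which passed, as did 11.6% of all genes. The other FLS1 copies were almost silent. Bra018076 on A06 had no read in M4 or H3, 2 in OvP and 3 in OvW. Bra037747 on A09 had 2 reads in M4 and none elsewhere, and Bra038647 on A06 had 2 reads in H3 and none elsewhere. Summed over its 4 copies, FLS1 gave a fold of 1.55 from 5822 reads in M4 and 3056 in H3, and 2.02 with total reads, which was called. In *O. violaceus* the sum gave a fold of 2.16 (interval 1.05 to 4.73) from 25 reads in OvP and 12 in OvW, which was not called.

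The genes matched to FLS3, a close relative of FLS1 in Arabidopsis, did not share one pattern. Bra029212 on A02 had 356 reads in M4 and 5 in H3, and 1 read each in OvP and OvW. Its level was 17.4 RPKM in M4 and 0.25 in H3, with 0.42 in OvP and 0.38 in OvW. M4 stood far above the other libraries, and the fold over H3 was 57.9 (interval 24.6 to 179). The copy with the preceding identifier, Bra029211 on the same chromosome, had 8 reads in M4 and none in H3, and 1 in OvP and 2 in OvW. This difference missed the call with TMM (exact binomial p = 0.0102). It was 2.17-fold when the 0 is read as 3 reads (lower interval limit 1.39). With total reads, or with adjusted p in place of p, it passed.

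The third copy, Bra038648 on A06, was low in M4 and H3 and was the FLS gene with most reads in *O. violaceus*. It had 15 reads in M4 and 22 in H3, and 26 in OvP and 13 in OvW. Bra009358 came close in *O. violaceus*, with 23 reads in OvP and 9 in OvW, and the order of these copies was not tested. The level of Bra038648 was 1.09 RPKM in M4 and 1.52 in H3, whereas *O. violaceus* had 15.4 in OvP and 7 in OvW. The fold was 0.55 for M4 over H3 (interval 0.27 to 1.12) and 2.08 for OvP over OvW (interval 1.03 to 4.40, exact binomial p = 0.0361), and neither was called. The difference between these folds passed a conditional exact test of the 4 counts (adjusted p = 0.0196, M4/H3 fold over OvP/OvW fold 0.27). With total reads the adjusted p of this exact test was 0.0575, which missed the limit. Of the 3 members that could be tested in this way 1 differed, beside 36.6% of 22374 genes, and with total reads none did, beside 37.9%. Bra037419, at 0 reads in both H3 and OvW, could not be tested so, since the outcome was fixed. For the sums described next, the share was 40.1% of 15314.

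Summed over copies, FLS3 reads were 379 in M4 and 27 in H3, an 11.4-fold difference (interval 7.72 to 17.5). They were 28 in OvP and 16 in OvW, a fold of 1.82 (interval 0.95 to 3.60) that was not called. The folds of the FLS3 sum differed between the pairs (conditional exact test, adjusted p = 1.78e-05), while for the FLS1 sum the adjusted p was 0.557. The names of these copies depend on the source of the match. The study's supplementary gene list names Bra029212 and Bra038648 as FLS4, and Bra029211, Bra037747 and Bra038647 as FLS3. With the copies grouped in that way, an alternative added after the data were seen, FLS4 gave a fold of 11.2 (interval 7.55 to 17.2) from 371 reads in M4 and 27 in H3, and FLS3 had 10 and 2 reads.

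Over all 7 FLS genes, 6201 reads were counted in M4 and 3083 in H3, and 53 in OvP and 28 in OvW. The summed level was 376 RPKM in M4 and 180 in H3, with 29.6 in OvP and 14.3 in OvW. Bra009358 took 93.9% of these reads in M4 and 99.1% in H3, and 43.4% in OvP and 32.1% in OvW. In *O. violaceus* the largest share was that of Bra038648, with 49.1% in OvP and 46.4% in OvW. Which copy led there rests on few reads and was not tested, nor was whether *O. violaceus* reads mapped equally to these *B. rapa* copies.

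Among the activators, MYB12 was the best covered. On its copy Bra004456 (chromosome A05), M4 had 710 reads and H3 had 101, while OvP had 2 and OvW none. The level was 40.1 RPKM in M4 and 5.43 in H3, and 0.96 in OvP with OvW listed at 0. The fold of M4 over H3 was 5.71 (interval 4.63 to 7.11). The second MYB12 copy, Bra000453 on A03, had 59 reads in M4 and 72 in H3, and 3 in OvP and none in OvW. Its fold of M4 over H3 was 0.67 (interval 0.46 to 0.95), which was not called, so the copies of MYB12 lay on either side of the TMM median. The MYB12 sum gave a fold of 3.61 (interval 3.06 to 4.29), from 769 reads in M4 and 173 in H3. With an assumed biological coefficient of variation (BCV) of 0.4 between plants, the sum was no longer called (exact p = 0.0330), whereas Bra004456 alone was (exact p = 0.00483), beside 6.34% of sums and 7.2% of genes called at that BCV. In *O. violaceus*, MYB12 reads summed to 5 in OvP and 0 in OvW (exact binomial p = 0.0284), a difference that was not called.

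MYB111, which shares its targets with MYB12 in Arabidopsis, was read mainly on Bra037419 on A06 in M4. This copy had 78 reads in M4 and none in H3, and 4 in OvP and none in OvW. Its level was 4.70 RPKM in M4 and 2.05 in OvP, and it was listed at 0 in H3 and OvW. The coloured material of each pair thus had reads and the other had none. M4 was 21.1-fold higher than H3 when the 0 is read as 3 reads (lower interval limit 16.8). The 4 reads of OvP against 0 in OvW were too few for a call (exact binomial p = 0.0578). Bra036145 on A09 had 5 reads in M4 and 2 in H3, and 7 in OvP and 6 in OvW. Its folds were 2.03 (interval 0.33 to 21.3) in *B. napus* and 1.21 (interval 0.35 to 4.37) in *O. violaceus*. Bra020647 on A02 had 1 read in OvW and none elsewhere. The MYB111 sum gave a fold of 33.7 (interval 9.05 to 283), from 83 reads in M4 and 2 in H3. It was 11 reads in OvP and 7 in OvW, a fold of 1.63 (interval 0.58 to 4.97). The folds of the sum differed between the pairs (conditional exact test, adjusted p = 0.000738), and for the MYB12 sum the adjusted p was 0.737.

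**Figure D2:**
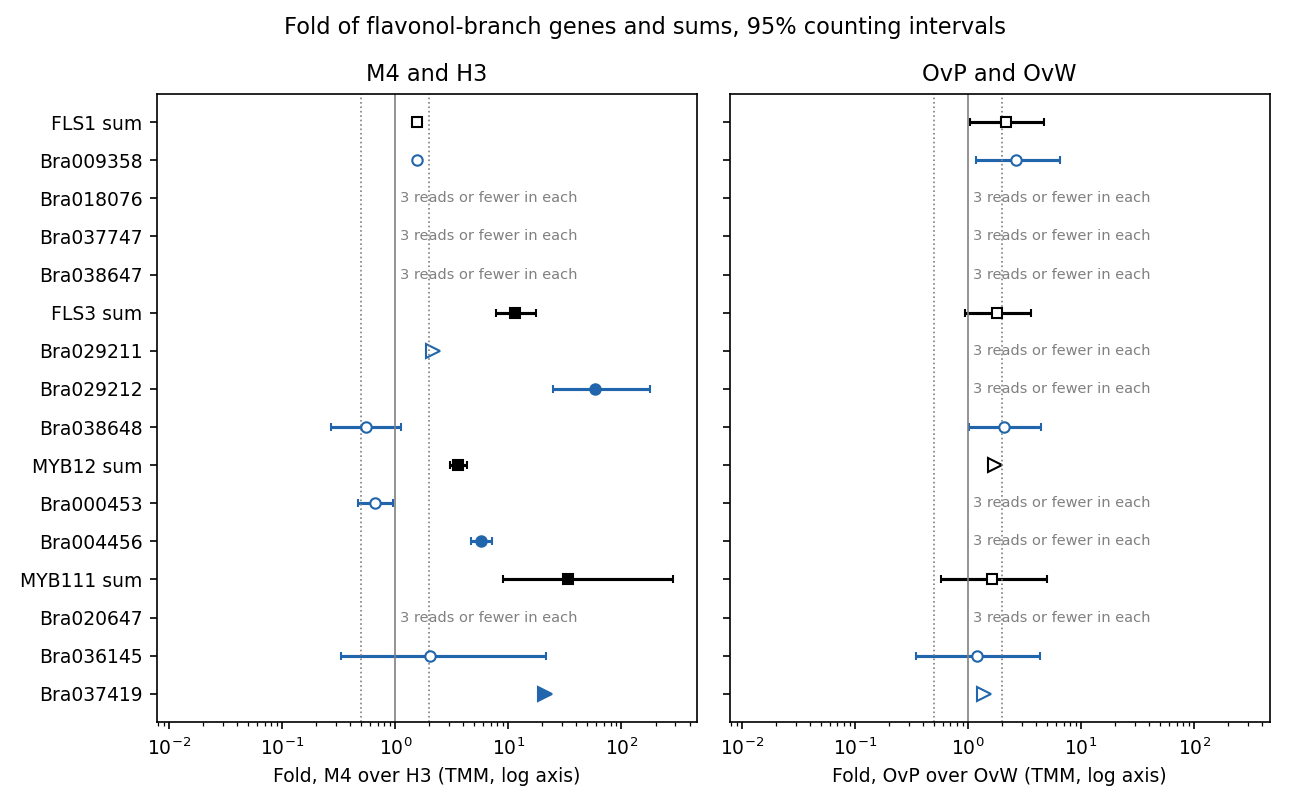
Fold of M4 over H3 (left) and of OvP over OvW (right) for each gene (blue circles) and each sum over copies (black squares) on a shared log axis, with 95% counting intervals as bars. Filled symbols were called, right-pointing triangles are folds with a count of 0 read as 3 reads, and dotted lines mark folds of 0.5 and 2. The 3 called genes, Bra029212, Bra004456 and Bra037419, all lie to the right in M4, and no symbol is filled for OvP and OvW.

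Of the 12 members, 10 had a read in M4 or H3 and 3 were called, all higher in M4, beside 29% of all 34286 genes called in either direction, 16.2% higher and 12.7% lower. The share of members called was thus near that of all genes. The number of members above 3 reads in M4 or H3 was 8, and the other 4 had 3 reads or fewer in each. For the sums, 3 of 4 were called, all higher in M4, beside 30.4% of all 19245 sums, of which 16.6% were higher and 13.7% lower. In *O. violaceus*, 0 of the 10 members with a read and 0 of 4 sums were called, beside 11.4% of 33743 genes (5.6% higher and 5.76% lower in OvP) and 12.7% of 19096 sums (6.07% higher and 6.63% lower). An unadjusted p under 0.05 in the exact binomial test was reached by 2 of these 10 members and 2 of these 4 sums. The share of all genes or sums under that p was not computed, so nothing can be read from these counts. Only 4 members had more than 3 reads in OvP or OvW, so differences of most members were not detectable at these counts of mapped reads.

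Which copy supplied the reads differed between M4 and H3 for all 3 genes that could be tested. The copy followed was the one with most reads over the pair. For FLS3 and MYB111 this was the leading copy of M4 and not of H3, so the direction was partly set by that choice. Bra004456 held 92.3% of MYB12 reads in M4 (interval 90.2 to 94.1, Clopper-Pearson) and 58.4% in H3 (interval 50.7 to 65.8), with an adjusted p of 3.23e-24 in Fisher's exact test. Bra029212 held 93.9% of FLS3 reads in M4 (interval 91.0 to 96.1) and 18.5% in H3 (interval 6.30 to 38.1), with an adjusted p of 1.85e-18 in Fisher's exact test. In H3 the leading FLS3 copy was Bra038648 with 81.5%, as in OvP with 92.9% and in OvW with 81.2%. Bra037419 held 94.0% of MYB111 reads in M4 and none of the 2 in H3 (Fisher's exact test, adjusted p = 0.0131), and with a minimum of 20 reads on each of 2 copies this gene could not be tested, while the other two still differed, beside 61.6% of the genes then tested. Such differences were common, since 52.4% of 7644 Arabidopsis genes differed in this way between M4 and H3.

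In *O. violaceus* neither testable gene passed the test. Bra009358 held 92.0% of FLS1 reads in OvP and 75.0% in OvW, and Bra036145 held 63.6% of MYB111 reads in OvP and 85.7% in OvW. The adjusted p-values of Fisher's exact test were 0.631 and 0.882, beside 14.2% of 6597 genes that differed. The intervals were wide, 74.0% to 99.0% in OvP and 42.8% to 94.5% in OvW for FLS1.

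**Figure D3:**
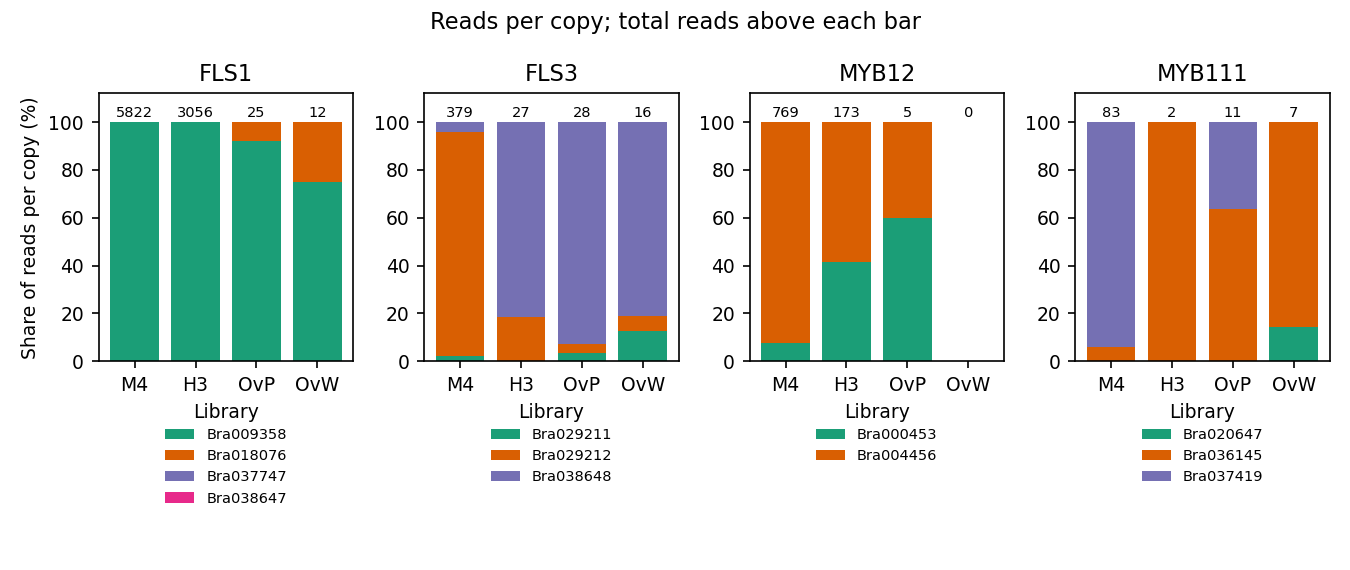
Share of the reads of FLS1, FLS3, MYB12 and MYB111 on each copy (stacked bars, in percent) in each library, with the total reads above the bar. M4 differs from H3 in FLS3, where Bra029212 holds 93.9% against 18.5%, and in MYB12, where Bra004456 holds 92.3% against 58.4%, and no bar is drawn for MYB12 in OvW, which had 0 reads.

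FLS and DFR use the same substrates, so their reads were set beside each other within each library, a measure that needs no scaling between libraries. In M4 6201 FLS and 428 DFR reads were counted, and in H3 3083 and 5. FLS thus took 93.5% of the FLS and DFR reads in M4 (interval 92.9 to 94.1) and 99.8% in H3 (interval 99.6 to 99.9), and the shares differed (Fisher's exact test, p = 6.19e-65). For each DFR read there were 14.5 FLS reads in M4 and 617 in H3. FLS reads thus exceeded DFR reads in both libraries.

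In *O. violaceus* the FLS share was lower than in *B. napus*, without a test between the species. Reads of *O. violaceus* mapped less often to *B. rapa*, and whether FLS and DFR reads did so equally was not tested. In OvP 53 FLS and 90 DFR reads were counted, and in OvW 28 and 34. By summed RPKM, which takes gene length in, FLS held 41.8% in OvP and 50.2% in OvW, so in OvW the order of FLS and DFR was not settled. FLS took 37.1% in OvP (interval 29.1 to 45.5) and 45.2% in OvW (interval 32.5 to 58.3), a difference that did not pass (Fisher's exact test, p = 0.281). When anthocyanidin synthase (ANS) reads were added to those of DFR, the share was 13.8% in OvP (interval 10.5 to 17.7) and 43.1% in OvW (interval 30.8 to 56.0), which differed (Fisher's exact test, p = 2.32e-07). This change comes from the ANS reads, 241 in OvP and 3 in OvW. The fold of ANS given below uses the same reads, so the share is not a separate result about FLS. For M4 and H3 the shares with ANS were 89.8% and 99.8%.

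**Figure D4:**
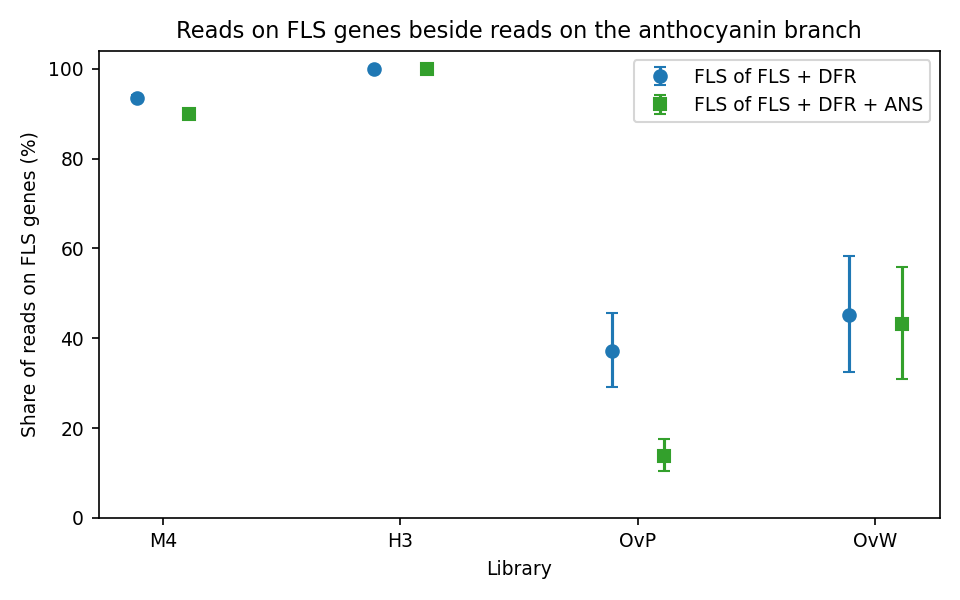
Share of reads on FLS genes among FLS and DFR reads (circles) and among FLS, DFR and ANS reads (squares) in each library, in percent, with 95% Clopper-Pearson intervals as bars. FLS takes 93.5% of FLS and DFR reads in M4 and 99.8% in H3, whereas it takes 37.1% in OvP and 45.2% in OvW.

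The steps that FLS shares with the anthocyanin branch were compared as sums over copies. In M4, 3 of 5 were called higher than in H3 and none lower, beside 16.6% of all sums higher and 13.7% lower. Their median log2 fold was 1.06 beside 0.017 over all sums. Flavanone hydroxylase F3H, which makes dihydroflavonols, was up 5.83-fold in M4. F3′H, which adds a hydroxyl group to the B ring, was 7.57-fold higher, and the chalcone isomerase-like protein CHIL 2.09-fold, a call lost at an assumed BCV of 0.2, at which 24.3% of sums were called. Chalcone synthase (CHS) had a fold of 0.98 with TMM and 1.27 with total reads, and chalcone isomerase (CHI) 0.845 with TMM and 1.103 with total reads, so neither has a direction that holds across scalings. In OvP, 2 of 5 were called higher and none lower, beside 6.07% of all sums higher and 6.63% lower. Their median was 0.94 beside 0.0038. F3′H was 5.07-fold and CHIL 2.57-fold higher than in OvW, and both calls were lost at an assumed BCV of 0.4 (exact p = 0.0276 and 0.128), at which 1.76% of sums were called.

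The anthocyanin branch itself had 3 of 5 sums called higher and 1 lower in M4, with a median fitted log2 fold of 5.70. Over all sums, 16.6% were higher and 13.7% lower in M4. DFR was 69.6-fold higher in M4 (interval 29.6 to 215). ANS was 74.2-fold higher when the 0 reads of H3 are read as 3 (274 reads in M4, lower interval limit 59.96). TT19, a glutathione transferase needed for anthocyanin transport, was 63.4-fold higher (interval 11.0 to 2535), on 78 reads in M4 and 1 in H3. The anthocyanin glucosyltransferase UGT75C1 was lower in M4, at 0.42-fold, and 0.55-fold with total reads, which was not called (32.4% of sums were with total reads), and the call was also lost at a BCV of 0.4. In OvP, 3 of 5 were called higher, beside 6.07% of all sums, with a median of 1.59. ANS was 83.5-fold higher than in OvW (interval 28.2 to 408), TT19 3.36-fold and DFR 2.75-fold. At a BCV of 0.4 ANS kept its call, while TT19 and DFR lost theirs (exact p = 0.0508 and 0.106).

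Of the genes that modify flavonols, other than the UGTs of the rule, 4 of 7 listed were in the sheet, and none was called higher in either pair. In M4 1 was lower, with a median log2 fold of -0.67, and in OvP 2 were lower, with a median of -0.64. Over all sums, 16.6% were higher and 13.7% lower in M4, and 6.07% and 6.63% in OvP. The lower sum of M4 had 34 reads against 68 in H3, a fold of 0.41. It was not called with total reads (fold 0.53), where 32.4% of sums were, or at a BCV of 0.2. UGT78D2, a glucosyltransferase of flavonols and anthocyanidins, was counted 1415 times in M4 and 1637 times in H3, a fold of 0.70 (interval 0.65 to 0.75) that was not called. It had 198 reads in OvP and 437 in OvW and was lower in OvP, at 0.47-fold (interval 0.40 to 0.56), a call lost at an assumed BCV of 0.2, at which 7.36% of sums were called. OMT1, which methylates quercetin, had a fold of 0.56 for M4 over H3, not called, and was lower in OvP at 0.47-fold, a call lost at a BCV of 0.4. RHM1, which makes the UDP-rhamnose used by flavonol rhamnosyltransferases, was not called in either pair, with folds of 1.08 and 0.87.

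UGT73C6, which glucosylates flavonol glycosides, belongs to a family of near-identical neighbours in Arabidopsis, and 4 of 5 relatives listed were in the sheet. In M4, 2 were lower and none higher, with a median log2 fold of -2.03, and in OvP 3 were higher and none lower, with a median of 2.06. Over all sums, 13.7% were lower in M4 and 6.07% higher in OvP. UGT73C5, an enzyme that glucosylates brassinosteroids, had most of the reads. Its reads numbered 3283 in M4 and 16290 in H3, a fold of 0.16 (interval 0.158 to 0.170), and 276 in OvP and 74 in OvW, a fold of 3.88 (interval 2.99 to 5.08). At a BCV of 0.4 the M4 call was kept and the OvP call lost (exact p = 0.00312 and 0.0281). Whether reads of a UGT73C6 gene were counted on these relatives was not tested.

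**Figure D5:**
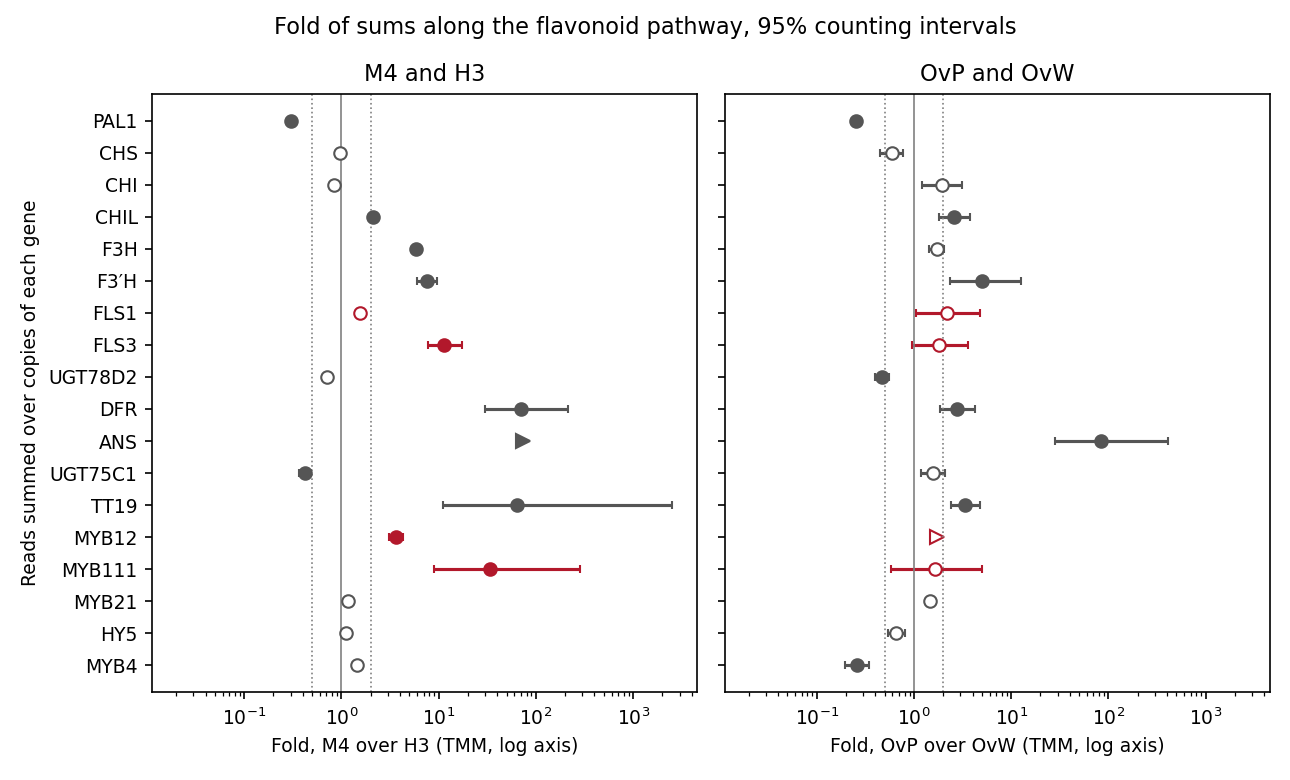
Fold of M4 over H3 (left) and of OvP over OvW (right) for sums over copies on a shared log axis, ordered from phenylpropanoid supply through FLS and the anthocyanin branch to regulators, with 95% counting intervals. Members are in red, filled symbols were called and triangles are folds with a count of 0 read as 3 reads. In M4 FLS3, MYB12 and MYB111 are filled and FLS1 at 1.55 is open.

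By profile over the 4 libraries, measured as the Euclidean distance of centred log2(RPKM + 1) values over 29 pathway genes, the sums closest to FLS1 were CHS at 2.04, CHI at 2.26 and UGT73C5 at 3.18. Those closest to MYB12 were CHI at 1.91, CHIL at 2.13 and CHS at 2.28. These distances describe 4 libraries that differ in species and depth, and no test was attached to them.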

How the data were processed

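Petal RNA of each material gave 1 library. TopHat was used by the authors for alignment to *B. rapa*, allowing at most 2 mismatches. They name DESeq for normalization, Cufflinks and Cuffdiff for levels, and edgeR for calling differences. The thresholds of p and fold used here are those of the paper. The deposited counts are whole, unscaled reads per gene. The deposited RPKM values are levels scaled to gene length and mapped reads, as the authors computed them. Not given in the sources used here: genome version, tool versions, counting tool and strand setting. Libraries were directional, and the counting of overlapping antisense genes could not be checked.

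The read sheet held 37441 genes, of which 35645 had an Arabidopsis match. Members were found by that match and not by symbol. Every gene that had a read in either library of a pair was tested with the binomial test of edgeR 4.0.16 in R 4.3.3, which assumes no variation between plants, after TMM scaling within the pair. Sums over copies were tested in the same way. Copy shares (Fisher's exact test) and fold differences (conditional exact test) were computed with Python 3.11.15, numpy 2.4.6, pandas 2.3.3 and SciPy 1.17.1 and adjusted by Benjamini-Hochberg over all genes at 0.05. Figures used matplotlib 3.10.9. Tests were checked on simulated data. Copy shares needed more than 3 reads in the pair on each of 2 copies.

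List medians took sums with 10 or more reads and added 0.5 reads. All members were accounted for, and those above 3 reads in a pair are given with values. Of the pathway lists, called sums of the shared and anthocyanin steps and the 3 with most reads of each list could be named. Members and lists were chosen with earlier results of these data known. Alternatives were total reads, DESeq2 1.42.0 size factors, minimums of 10 and 20 reads, edgeR's exact test at an assumed BCV of 0.1, 0.2 and 0.4, adjusted p in place of p, folds from RPKM, the leading copy only, FLS1 only, DFR with ANS, and RPKM in place of reads. No sequence is shown.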

Additional observations from a re-analysis of the deposited data

Results flagged for a closer look

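Some folds differed between M4 over H3 and OvP over OvW by the conditional exact test of the 4 counts, with p adjusted over all genes or all sums. Among single members this held for Bra038648 (adjusted p = 0.0196 in the exact test), whose reads were 15 for M4, 22 for H3, 26 for OvP and 13 for OvW. Among member sums it held for MYB111 (adjusted p = 0.000738 in the exact test) and FLS3 (adjusted p = 1.78e-05 in the exact test). The test holds counting error only, and 36.6% of genes and 40.1% of sums passed it.

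Of the pathway sums described here, those that also differed, with a larger fold in M4 over H3, were CHS (0.000415), F3H (4.63e-30), DFR (1.7e-15), TT19 (6.59e-05), UGT78D2 (7.43e-05), OMT1 (0.0138), RHM1 (0.00302), PAL1 (3.22e-06), HY5 (1.71e-06) and MYB4 (2.89e-38), each value being the adjusted p of the exact test. Those with a larger fold in OvP over OvW were CHI (0.00104), UGT75C1 (3.46e-17), UGT73C5 (5.27e-161) and MYB21 (9.92e-09), by the same exact test. Other sums of the pathway lists, among them PAL2 and UGT73C1, passed too and are not described here.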

How the results depend on the processing

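With total reads in place of TMM, 5 members were called between M4 and H3, beside 30.8% of all genes. This added Bra009358 and Bra029211 to the 3 called with TMM, beside 29% of genes. Between OvP and OvW 1 was called with total reads (Bra009358), beside 11.6% of genes. With the same scaling, 0 differed in fold between the pairs, beside 37.9%. With a minimum of 20 reads on each of 2 copies, 2 copy shares differed between M4 and H3, beside 61.6% of the genes tested. These were MYB12 and FLS3, MYB111 having too few reads. No member could be tested in this way between OvP and OvW. With ANS counted beside DFR, the FLS share of OvP minus OvW was -29.3 percentage points, against -8.10 with DFR alone, a change that comes from the ANS reads. CHS of M4 over H3 turned to 1.27 with total reads and 1.26 from RPKM, and CHI to 1.103 with total reads. Over all alternatives run, 2 to 4 member sums were called for M4 and H3 and 0 for OvP and OvW. For M4 and H3 the count was 2 at a BCV of 0.4, beside 6.34% of all sums, and 4 with total reads, beside 32.4%. For OvP and OvW the shares of all sums at these settings were 1.76% and 12.9%. Of the folds of named sums under these alternatives, 296 kept their direction and call, 17 lost the call and 4 gained it. No paired analysis was possible because each material had 1 library and no replicate number, and for the same reason no library could be left out. The FLS values of OvP and OvW rest on 53 and 28 reads, which limits their precision.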

Other observations

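The genes that supply the phenylpropanoid precursor had 0 of 8 sums called higher and 3 lower in M4, with a median log2 fold of -0.39, and 4 lower in OvP, with a median of -1.14. Over all sums, 16.6% were higher and 13.7% lower in M4, and 6.63% were lower in OvP. PAL1, the entry enzyme with most reads, was counted 11771 times in M4 and 31919 times in H3, a fold of 0.30, and 1292 in OvP and 5276 in OvW, a fold of 0.25. Both calls were lost at an assumed BCV of 0.4 (exact p = 0.0423 and 0.0222).

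Of the other regulators of flavonoid genes, 3 of 4 were in the sheet and none was called in M4, beside 30.4% of all sums. MYB21, a petal and stamen factor that acts on FLS1 in Arabidopsis, had a level of 2041 RPKM in M4 and 1362 in H3, and 1288 in OvP and 830 in OvW, with folds of 1.16 and 1.47 that were not called. HY5, a light signalling factor, had folds of 1.12 and 0.66, not called. MYB4, a repressor of phenylpropanoid genes, was lower in OvP at 0.26-fold of OvW, a call lost at a BCV of 0.4 (exact p = 0.0283), and its fold of M4 over H3 was 1.44.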
